A study of Rattus norvegicus with 2 samples.

Results

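The genes described here encode enzymes that hydroxylate and cross-link collagen, together with the collagen chaperone. They are the lysyl oxidases Lox, Loxl1, Loxl2 and Loxl3, the lysyl hydroxylases Plod1, Plod2 and Plod3, the prolyl 4-hydroxylase subunits P4ha1 and P4ha2, and Serpinh1. They were chosen by name, and all 10 were found among the 16846 gene symbols of the deposited table. Poly(A) RNA was sequenced, strand by strand, from 2 cultures prepared as cardiomyocytes from the ventricles of neonatal rats at postnatal day 0. The anti-miR culture had been transduced for 7 days with adeno-associated virus (AAV2/9) that expressed short hairpin RNAs against miR-99/100 and let-7a/c. The control received an empty virus according to its treatment tag, and a mock transduction according to the protocol. The strain and the number of animals behind each culture are not stated in the labels. With 1 library per group, no difference below has a replicate check, and each describes this pair of libraries.

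Collagen chains are modified while they fold in the endoplasmic reticulum. Prolyl 4-hydroxylases convert prolines to hydroxyproline, which stabilises the triple helix, and lysyl hydroxylases convert lysines to hydroxylysine, which carries sugars and shapes later cross-links. The chaperone HSP47, encoded by Serpinh1, binds the folded helix until it leaves for the Golgi. Outside the cell, lysyl oxidases oxidise lysines and hydroxylysines of collagen, and lysines of elastin, to aldehydes that then form covalent cross-links. In the heart these steps set how stiff and how soluble the collagen matrix is, and fibroblasts carry out most of them.

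The inhibitors were directed at microRNAs of 2 seed families, and the mature sequences of 4 of them are printed to show what the hairpins were aimed at. Capitals mark the seed, bases 2 to 8 from the 5′ end, the stretch that pairs with target messages. let-7a and let-7c share 1 seed, and miR-99b and miR-100 share another. Sequences are those of RefSeq (build GRCr8), and miR-99a is named only. No target site in a message of the 10 genes was examined.
rno-let-7a-5p: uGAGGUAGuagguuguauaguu
rno-let-7c-5p: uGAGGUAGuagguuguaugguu
rno-miR-99b-5p: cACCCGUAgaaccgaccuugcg
rno-miR-100-5p: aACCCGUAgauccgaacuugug

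The cultures carried strong fibroblast and macrophage signatures and little of the cardiomyocyte one their label names. The 8 fibroblast markers summed to 56493 RPM (a gene's reads per 1000000 assigned reads) in the anti-miR library and 55347 in the control. Col1a1 made up most of this, with 50088 and 49138 RPM. Postn, with 5207 and 5048 RPM, stands also on the TGF-beta list. Of the 8, 0 were 1.5-fold apart, against 19.4% of genes of mean at least 1 RPM. The share was 0.745% among genes of mean 152 to 2573 RPM. Some of the 8 lay below that level range and some above it. Dcn, with 83.2 RPM in the anti-miR library and 56.3 in the control, came close to 1.5-fold. It was chosen after its values were seen. The 9 cardiomyocyte markers in the table summed to 278 and 241 RPM, most of it Tnnt2, cardiac troponin T, with 161 and 147 RPM in the anti-miR library and the control, and Actc1, cardiac alpha actin, with 88.8 and 77.0. Scarcer markers went both ways. Myh7 had 171 and 99 reads, Nppa 139 and 91, and Myl2 5 and 30. Myh6 had 23 reads in the anti-miR library, Ryr2 20 and Tnni3 5, and all 3 had 0 in the control, which allows up to 0.187 RPM each; these 3 were chosen after their values were seen. The 9 macrophage markers summed to 7243 and 6526 RPM, but without Lyz2, which had 3937 and 2937, the other 8 summed to 3306 and 3589. Cd68, the next in level, had 763 RPM in the anti-miR library and 940 in the control. C1qa had 355 and 528 RPM and Aif1 164 and 219, both chosen after their values were seen. Of the 9, 5 were higher and 4 lower. The 5 smooth muscle markers summed to 1115 and 1110 RPM, with Tagln at 909 and 901 and Smtn at 129 and 133. Endothelial markers summed to 64.3 and 41.0 RPM over 6 genes. Of these, Flt1 had 665 and 396 reads, Tek 114 and 56, Tie1 120 and 158, Pecam1 50 and 0, and Vwf 3 and 47. Epicardial markers summed to 14.6 and 26.1 RPM over 4 genes, with Upk1b at 56 and 189 reads, Wt1 at 86 and 108 and Krt19 at 7 and 32. Of the markers named here, Dcn, Lyz2 and Flt1 lay above the like-level range of log2 ratios, described below. C1qa, Aif1 and Upk1b lay below theirs. In such bulk samples fewer cells of a type and less RNA per cell cannot be told apart. The part of cell make-up in the small differences of Loxl3, P4ha2 and Plod3 was not tested.

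All 10 genes were well expressed, and none was 2-fold apart between the libraries. The count of genes at least 2-fold apart was 0 of 10, against 8.41% of the 10365 genes whose mean reached 1 RPM, the floor used throughout. At the 1.5-fold mark it was again 0 of 10, against 19.4% of those genes. Genes this abundant seldom differed so far: of the 1074 genes between the lowest and the highest of the 10 in mean level, 152 and 2573 RPM, 0 were 2-fold apart and 0.745% were 1.5-fold apart. The ratios of the 10, anti-miR over control, ran from 0.917 for Plod3 to 1.25 for Loxl3. The median log2 ratio of the 10 genes was 0.02, and that of all 10365 genes was 0.03. Of the 10, 7 were above 0 and 3 below, but scaling by the median ratio over genes instead of the column total gave 5 and 5. Loxl1 and Loxl2 then changed sign, and leaving the 50 most abundant genes out of the total gave 6 and 4. Here and below, a log2 ratio is that of RPM plus 0.1 in each library.

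**Figure D1:**
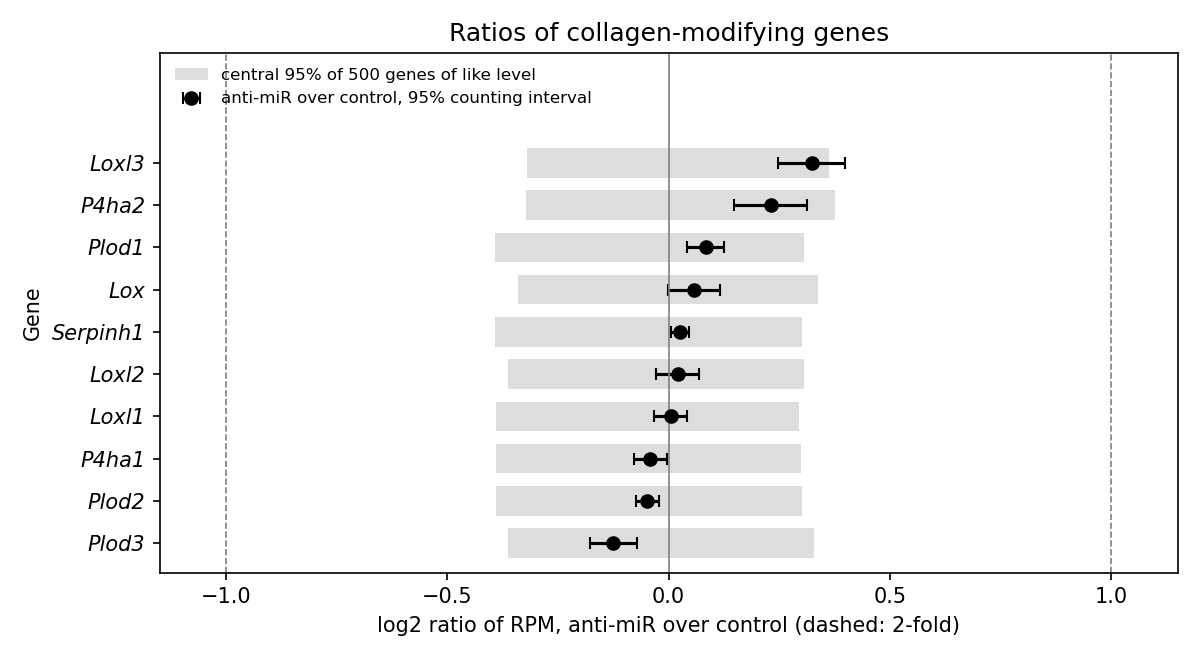
log2 ratio of RPM, anti-miR over control, for each gene (points), with the 95% counting interval (bars) and the central 95% range of log2 ratios among 500 genes of like level (grey). All 10 points lie inside their grey range and far inside the dashed lines at 2-fold, with Loxl3 at 0.32 nearest to an edge.

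Counting error was small, since each gene had between 2246 and 40871 reads in a library. The counting interval, an exact 95% interval of the ratio of reads, left out 1 for 7 of the 10 genes. It lay above 1 for 4 of them, Loxl3, P4ha2, Plod1 and Serpinh1, and below 1 for 3, Plod3, Plod2 and P4ha1. The intervals, and the binomial test below, use the column totals alone. With median-ratio scaling the log2 ratio of Serpinh1 fell from 0.03 to 0.002, so its place among the 4 depends on the scaling. Such intervals left out 1 for 61.7% of all genes above the floor and for 72% of those in the level range of the 10. An exact binomial test on the reads, Benjamini-Hochberg adjusted at 0.05, called 6 of the 10 and 57.6% of all genes above the floor, and it compares these libraries, not the conditions. The intervals cover counting error only and say nothing of how cultures vary. As a measure of how far genes lay apart in this pair of libraries, each gene was set beside the 500 others nearest in level. All 10 lay inside the central 95% of those log2 ratios.

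Serpinh1 (chromosome 1, 156666914 to 156674211, build rn4, minus strand), the chaperone gene, was by far the highest of the 10. It had 38473 reads in the anti-miR library and 40871 in the control, or 2597 and 2549 RPM. Levels of different genes are compared per transcript length, in RPM per kilobase of the transcript in the deposited table. On that scale Serpinh1 stood at 1293 in the anti-miR library and 1269 in the control, ranks 28 and 29 among the 10365 genes. The ratio was 1.02 (counting interval 1.004 to 1.033), and its log2 ratio of 0.03 lay near the middle of its like-level range of −0.39 to 0.30.

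Serpinh1 is known as a heat shock gene. The 250 bases before its start are printed because they hold a match to GAANNTTC, an inverted pair of heat shock factor units, shown in capitals 30 bases before the start. That motif reads the same on both strands. It was found in the promoters of 3 of the 8 genes with an entry, and in 7.23% of all 33469 windows of 250 bases. Lox and Loxl2 are named only. The coordinates are those of RefSeq, chr1:163062977-163063226 on the minus strand of build GRCr8, and not of the build of the counts.
Serpinh1: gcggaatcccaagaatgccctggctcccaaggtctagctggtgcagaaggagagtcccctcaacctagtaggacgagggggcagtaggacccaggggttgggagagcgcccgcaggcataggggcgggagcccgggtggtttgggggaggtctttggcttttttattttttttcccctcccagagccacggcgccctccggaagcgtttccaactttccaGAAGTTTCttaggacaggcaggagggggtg

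The prolyl 4-hydroxylase is a tetramer of catalytic alpha subunits and beta subunits, and P4ha1 and P4ha2 encode alternative alpha subunits. P4ha1 (unplaced sequence of rn4, 15074983 to 15124617, minus strand), the isoform of most cells, had 10784 reads in the anti-miR library and 12006 in the control, or 728 and 749 RPM. Its ratio was 0.972 (0.947 to 0.998). P4ha2 (chromosome 10, 39522157 to 39551063, plus strand), an isoform best known from cartilage and bone, had 2435 and 2246 reads, or 164 and 140 RPM in the anti-miR library and the control. Its ratio of 1.17 (1.11 to 1.24) was the second highest of the 10. Among the 500 genes nearest to P4ha2 in level, 18.8% lay at least as far from no difference in either direction.

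Per length, P4ha1 exceeded P4ha2 4.83-fold in the anti-miR library and 5.83-fold in the control. P4ha2 made up 17.2% of the pair in the anti-miR library and 14.6% in the control. Their sum hardly differed, at 417 RPM per kilobase in each library. P4ha3, a further alpha subunit that is not among the 10, held 7.44% of all alpha subunit message per length in the anti-miR library and 6.78% in the control. The beta subunit gene P4hb, which also serves as protein disulfide isomerase, stood at 977 and 979 RPM per kilobase, 2.17 and 2.19 times the 3 alpha subunits together.

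Plod2 (chromosome 8, 97525279 to 97623151, plus strand) led the lysyl hydroxylases in both libraries. It encodes the enzyme for lysines in the telopeptides, the ends of collagen where stable cross-links start. It had 22092 reads in the anti-miR library and 24722 in the control, or 1491 and 1542 RPM, with a ratio of 0.967 (0.950 to 0.985). Plod1 (chromosome 5, 164987247 to 165012583, minus strand), which acts on lysines within the helix, had 9135 and 9327 reads, or 617 and 582 RPM. Its ratio was 1.06 (1.03 to 1.09). Plod3 (chromosome 12, 20856527 to 20867088, plus strand), whose product also transfers sugars to hydroxylysine, was the lowest of the 10 in ratio. It had 5160 and 6088 reads, or 348 RPM in the anti-miR library and 380 in the control, a ratio of 0.917 (0.884 to 0.952).

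None of the lysyl hydroxylases left its like-level range. That of Plod3 ran from −0.36 to 0.33 on the log2 scale and its own value was −0.12, with 42.8% of genes of like level at least as far from 0. Plod3 overlaps Znhit1 on the opposite strand, a gene with 142 reads in the anti-miR library and 237 in the control, and reads were counted on 1 strand only. Per length, Plod2 accounted for 52.7% of the lysyl hydroxylases in the anti-miR library and 53.7% in the control. Plod1 followed with 30.9% and 28.7%, and Plod3 with 16.4% and 17.7%.

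**Figure D2:**
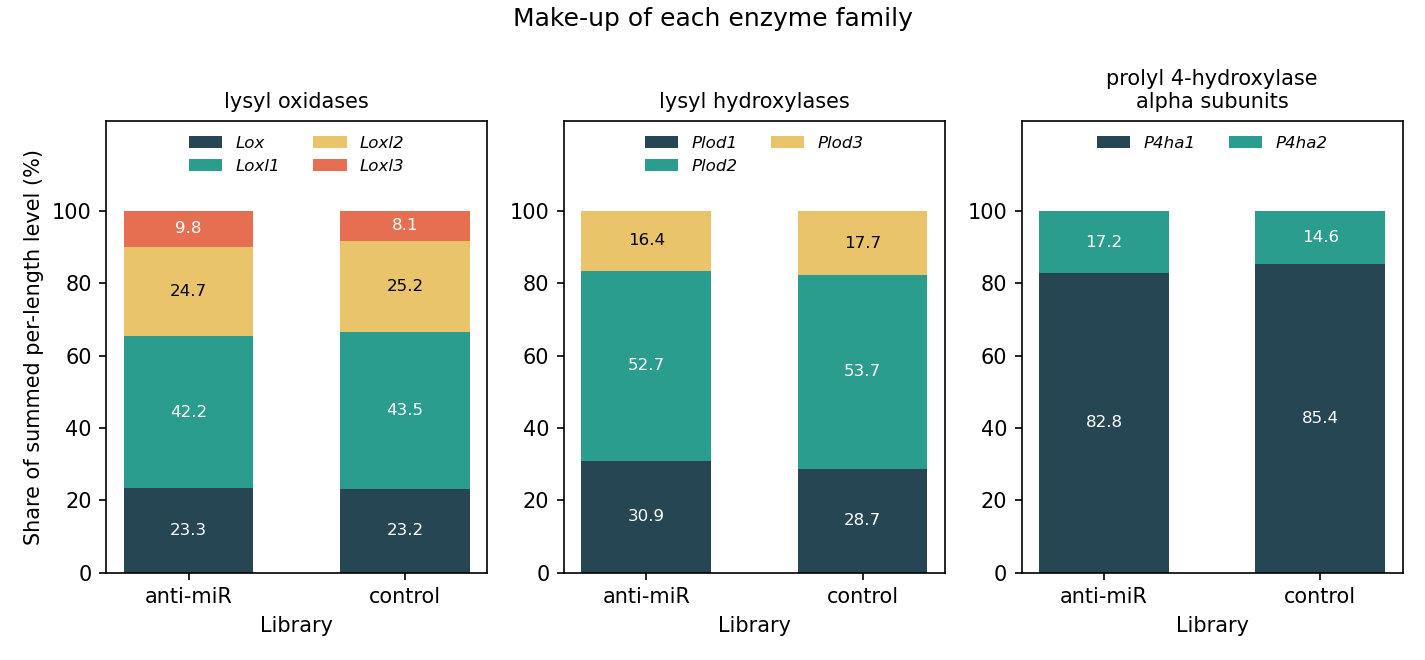
Share of each gene in the summed RPM per kilobase of its enzyme family (percent, bars starting at 0), in the anti-miR library and the control, 1 library each. The make-up of the families differed little: Loxl3 held 9.8% and 8.1% of the lysyl oxidases, and P4ha2 17.2% and 14.6% of the prolyl 4-hydroxylase pair.

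Plod2 and P4ha2 are known targets of hypoxia-inducible factor, as is P4ha1. The 250 bases before the start of Plod2 and P4ha2 are printed because each holds 2 matches to ACGTG, the core of the hypoxia response element, read on either strand and shown in capitals. On the minus strand the core appears as CACGT. Of the 8 genes with an entry, 2 held the core, against 16.6% of all windows. A match is a description of letters and not of binding. Both windows lie on the plus strand of build GRCr8, at chr8:101964068-101964317 for Plod2 and chr10:38743644-38743893 for P4ha2.
Plod2: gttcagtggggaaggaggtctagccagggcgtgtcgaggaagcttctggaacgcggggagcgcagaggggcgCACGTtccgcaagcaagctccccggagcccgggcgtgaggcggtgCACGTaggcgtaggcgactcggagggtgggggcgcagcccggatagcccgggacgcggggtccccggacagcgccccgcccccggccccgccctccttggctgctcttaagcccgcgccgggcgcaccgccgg
P4ha2: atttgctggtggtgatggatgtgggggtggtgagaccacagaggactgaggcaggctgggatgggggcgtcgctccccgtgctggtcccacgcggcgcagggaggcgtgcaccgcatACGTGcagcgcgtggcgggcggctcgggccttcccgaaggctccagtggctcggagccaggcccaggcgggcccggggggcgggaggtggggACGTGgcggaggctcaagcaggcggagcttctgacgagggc

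Of these promoters with matches, that of Plod2 belongs to a gene slightly lower in the anti-miR library and that of P4ha2 to one slightly higher. A list of other hypoxia-induced genes lay above 0. Of its 16 genes above the floor, 12 were higher and 4 lower (11 and 5 with either other scaling), 2 were at least 2-fold higher (background 4.85%) and 0 were at least 2-fold lower (background 3.56%). Its median log2 ratio was 0.29, against 0.03 for all genes. The 4 lower genes were Pfkfb3 at −0.39, Hk2 at −0.30, Kdm3a at −0.24 and Slc2a1 at −0.17. Vegfa stood at 0.03. These 5 were chosen after their values were seen. Bnip3, a mitophagy receptor, had 370 reads in the anti-miR library and 208 in the control, and Egln3, an oxygen-sensing prolyl hydroxylase of the factor itself, had 121 and 62. The most abundant of the list were Aldoa, with 828 RPM in the anti-miR library and 672 in the control, and Pgk1, with 340 and 276. Bnip3 lay above its like-level range, at a log2 ratio of 0.94 against −0.88 to 0.84. Aldoa lay just above its own, at 0.30 against −0.39 to 0.29. Ldha, at 0.48 against −0.49 to 0.39, and Car9, at 0.58 against −0.60 to 0.57, also lay above theirs. Egln3 and Pgk1 lay inside theirs, as did Pdk1 at 0.52. Ldha, Car9 and Pdk1 were likewise chosen after their values were seen. Ankrd37 had 50 reads in the anti-miR library and 3 in the control, a ratio of 18.03 (5.83 to 90.4), and passed the floor only through the library where it was high. Genes of its level spanned −3.69 to 5.23 on the log2 scale. Without it, 1 of 15 genes was at least 2-fold higher and the median was 0.28. Of the 10, the genes named above as hypoxia targets stood at log2 ratios of −0.05 for Plod2, −0.04 for P4ha1 and 0.23 for P4ha2. Whether others of the 10 are such targets was not examined.

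Among the lysyl oxidases, Loxl1 (chromosome 8, 62083051 to 62106827, minus strand), needed for the upkeep of elastic fibres, had the highest level and the ratio nearest to 1. It had 11428 reads in the anti-miR library and 12326 in the control, or 771 and 769 RPM, a ratio of 1.003 (0.978 to 1.03). Loxl2 (chromosome 15, 49982103 to 50068900, plus strand), which also cross-links type IV collagen of basement membranes, had 6554 and 6993 reads, or 442 and 436 RPM. Its ratio was 1.01 (0.980 to 1.05). Lox (chromosome 18, 47896674 to 47970829, minus strand), the founding member, had 4585 and 4765 reads, or 309 and 297 RPM, with a ratio of 1.04 (0.9996 to 1.085). For these 3 genes the interval included 1, so no difference could be detected with these read numbers.

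Loxl3 (chromosome 4, 117245933 to 117262248, plus strand), which in mice is required for the palate and spine, had the highest ratio. It had 3076 reads in the anti-miR library and 2660 in the control, or 208 and 166 RPM. The ratio of 1.25 (1.19 to 1.32) was the only one of the 10 at least 1.2-fold apart, against 46.6% of all genes and 13.2% of those in the level range of the 10. Its log2 ratio of 0.32 remained inside the like-level range of −0.32 to 0.36, where 7% of genes lay at least as far from 0. Loxl3 overlaps Htra2 on the opposite strand, with 825 and 815 reads, and reads were counted on 1 strand.

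**Figure D3:**
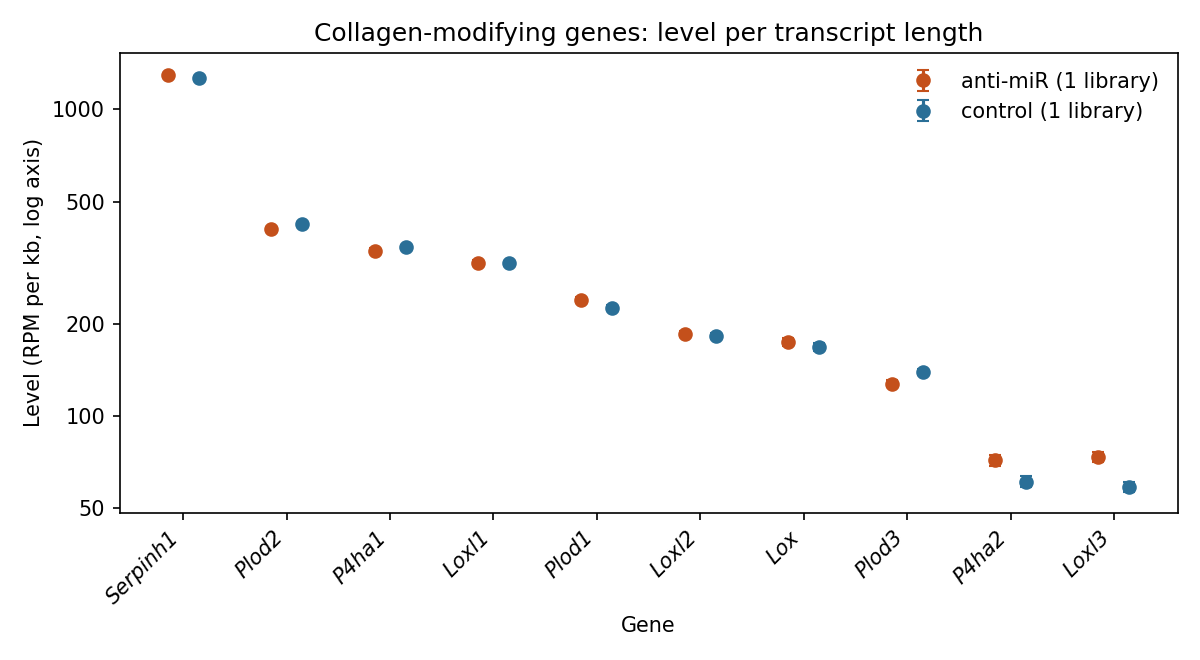
Level of each gene in RPM per kilobase of transcript (log axis) in the anti-miR library (left point) and the control (right point), with exact 95% Poisson counting intervals, mostly smaller than the points. Levels run from 1293 and 1269 for Serpinh1 down to 71.6 for P4ha2 in the anti-miR library and 58.8 for Loxl3 in the control, and the libraries lie close together at every gene.

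The order of the 10 genes by per-length level was nearly the same in both libraries. It ran from Serpinh1 through Plod2, P4ha1, Loxl1, Plod1, Loxl2 and Lox to Plod3, and spanned 18.1-fold in the anti-miR library and 21.6-fold in the control. Loxl3 and P4ha2 closed the order and swapped places, at 73.5 and 71.6 RPM per kilobase in the anti-miR library, and at 58.8 and 61.0 in the control. Their counting intervals overlapped within each library, and no other neighbours in the order overlapped. The closest other pair was Loxl2 and Lox, 1.06-fold apart in the anti-miR library and 1.09-fold in the control. Without a correction for length the order was the same in both libraries, with Loxl1 above P4ha1 and Plod3 above Lox. All 10 stood high among the genes above the floor, from percentile 89.4 for P4ha2 to 99.7 for Serpinh1 in the anti-miR library, and from 86.5 for Loxl3 to 99.7 for Serpinh1 in the control.

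Ratios between genes of 1 family do not depend on how libraries are scaled. Of the 10 pairs within the families, 7 differed between the libraries by more than counting error and 3 did not. The pairs share genes, and no background share was counted for pairs. For single genes in the level range of the 10, the counting interval left out 1 for 72%. All 3 pairs with Loxl3 were among the 7 pairs. Relative to Loxl3, Loxl1 was lower in the anti-miR library, at 4.29-fold against 5.36-fold per length in the control. The ratio of these ratios was 0.802 (0.756 to 0.850). The proportions among Lox, Loxl1 and Loxl2 differed by no more than counting error, with ratios of ratios from 0.989 to 1.04 and intervals that included 1. Plod1 was higher relative to Plod3, at 1.88-fold in the anti-miR library and 1.62-fold in the control, a ratio of 1.16 (1.10 to 1.21). How much such proportions vary between cultures cannot be read from 1 library per group.

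The main substrate was far more abundant than any of these enzymes. Col1a1, the alpha 1 chain of type I collagen, stood at 8676 RPM per kilobase in the anti-miR library and 8512 in the control. Serpinh1 came to 14.9% of Col1a1 per length in each library, and the ratio of these shares was 0.999 (0.985 to 1.01). Plod2 came to 4.71% and 4.96%, and Loxl1 to 3.64% and 3.70%. Loxl3 was at 0.847% of Col1a1 in the anti-miR library and 0.690% in the control. Summed per length, the 9 fibrillar collagen chains had a ratio of 1.01 between the libraries, as did the 10 genes. Within that list, 0 of 9 chains were at least 1.5-fold higher and 2 at least 1.5-fold lower, against 10.8% and 8.56% of all genes. They were Col2a1, with 88.6 and 138 RPM in the anti-miR library and the control, and Col11a2, with 33.0 and 52.5. Both encode chains typical of cartilage collagens. Both log2 ratios lay below their like-level ranges, Col2a1 at −0.64 against −0.47 to 0.40 and Col11a2 at −0.67 against −0.51 to 0.61. Col3a1, of type III collagen, had 26168 and 26226 RPM. Other substrates, collagens outside the fibrillar group and elastin, were slightly higher in 6 of 6 genes, or 5 of 6 with median-ratio scaling. Their median log2 ratio was 0.15, against 0.03 for all genes. At the 1.5-fold mark 0 were apart, against 19.4% of all genes and 0.745% of those in the level range of the 10. Some of these 6 lay below that level range and some above it. Eln, elastin, had 12578 RPM in the anti-miR library and 10929 in the control, and Col4a1, of basement membrane type IV collagen, had 4180 and 3658. Both lay inside their like-level range of −0.39 to 0.30, at 0.20 and 0.19.

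Genes of the same pathway that are not among the 10 were counted from a list of partners, exporters and propeptide proteases. Of its 26 genes in the table, 25 lay above the floor, 13 of them higher and 12 lower (11 and 14 with median-ratio scaling), and 0 were 2-fold apart (background 8.41%). Their median log2 ratio was 0.00. At the 1.5-fold mark, 0 were higher and 2 lower, against 10.8% and 8.56% of all genes. Loxl4, the fifth lysyl oxidase gene, was 1 of these, with 218 reads in the anti-miR library and 396 in the control, or 14.7 and 24.7 RPM. Its ratio of 0.596 (0.503 to 0.705) corresponds to −0.74 on the log2 scale, and genes of like level spanned −0.88 to 0.84. Loxl4 was scarce, at 0.518% of the 5 lysyl oxidases per length in the anti-miR library and 0.897% in the control. The other was Adamts3, a procollagen N-proteinase, with 37 and 69 reads. Its paralog Adamts2, the main N-proteinase of type I collagen, had 533 and 431 RPM. The log2 ratio of Adamts2, 0.31, lay just above its like-level range of −0.37 to 0.30.

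Pcolce, an enhancer of C-propeptide removal and among the most abundant of the list, had 1152 RPM in the anti-miR library and 1149 in the control. Fkbp10, a prolyl isomerase that assists Plod2, had 555 and 503 RPM, and per length came to 0.533 and 0.468 of Plod2. The prolyl 3-hydroxylase complex had mixed values: its enzyme gene Lepre1 had log2 ratio 0.14, Crtap 0.25 and the cyclophilin gene Ppib −0.14. The collagen galactosyltransferase gene Colgalt1 had 443 and 410 RPM. Others of the list were lower, among them Fkbp7 and Leprel4, both at −0.29, Pepd at −0.24, Fkbp14 at −0.22 and Sec23a at −0.21. Over the list, 13 genes were higher and 12 lower, so the genes named here do not show its balance. Fkbp10, Lepre1, Crtap, Ppib, Colgalt1, Adamts2, P4ha3, Fkbp7, Leprel4, Pepd, Fkbp14 and Sec23a were chosen after their values were seen.

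**Figure D4:**
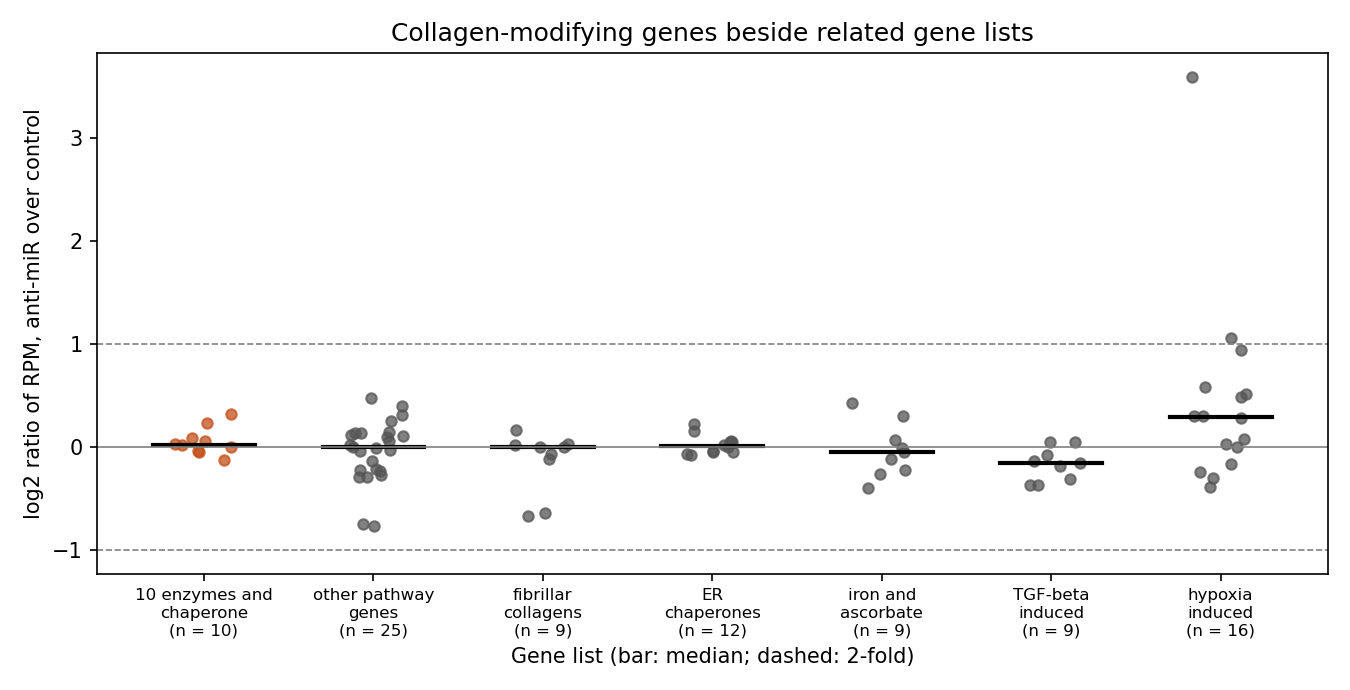
log2 ratio of RPM, anti-miR over control, for the 10 genes and for 6 related lists (points are genes above the floor, horizontal bars medians, dashed lines 2-fold). The 10 genes lie between −0.12 and 0.32, and the hypoxia-induced list has the highest median, 0.29, with Ankrd37 at 3.60.

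General chaperones of the endoplasmic reticulum also had ratios close to 1. All 12 lay above the floor, and 0 were 1.5-fold apart, against 19.4% of all genes but 0.745% of those as abundant as the 10. Some of the 12 were scarcer than the 10. The median log2 ratio was 0.01. Hspa5, the master chaperone BiP, had 1650 RPM in the anti-miR library and 1708 in the control, and Calr, calreticulin, had 1707 and 1747. Genes induced by TGF-beta, a growth factor that raises collagen synthesis in fibroblasts, were slightly lower as a list. Of 9 above the floor, 2 were higher and 7 lower, the median was −0.15, and 0 were 1.5-fold apart, to be read against the same shares. Some of these 9 lay below the level range of the 10 and some above it. Fn1, fibronectin, had 23750 and 24999 RPM, and Ctgf had 5026 and 5523.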

How the data were processed

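The authors deposited 1 table with a scaled read signal per gene for 2 libraries, 1 per group. Per the file headers, HOMER counted reads over exons of rn4 transcripts on the opposite strand, with no adjustment of totals and 1 transcript per gene. Per the submitters' processing notes, the tools were CASAVA 1.8.2, STAR 2.2.0c and HOMER, with no roles stated. The deposited signal sums to 15423812 in the anti-miR column and 15423813 in the control, so the counts must have been rescaled, by a step that is not stated. The transcript lengths were used unchanged.

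Each column steps in units worth 1 read, 1.04 in the anti-miR library and 0.962 in the control, and 100% of values up to 400 reads fell on a whole read to within 0.005 of the deposited signal. Depth was 14815846 reads on genes in the anti-miR library and 16031780 in the control, with 11367 and 10908 genes above 0. A count of 0 allows up to 3 reads, 0.202 and 0.187 RPM. RPM is the signal per 1000000 of its column total, and a log2 ratio adds 0.1 RPM. Genes of mean at least 1 RPM were kept. Ratios carry Clopper-Pearson intervals, levels Poisson intervals, and ratios of ratios exact conditional intervals, or log-normal ones where counts were large. Like-level ranges use the 500 nearest genes. Scripts were tested on simulated data (Python 3.11.15, scipy 1.17.1). Of 16846 genes, 15842 had an accession in the RefSeq table.

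The 10 genes, the lists and the tests were chosen with earlier results of these data known. Named genes are the 10, and in each list those at least 1.5-fold apart and the 2 most abundant; exceptions are stated.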

Additional observations from a re-analysis of the deposited data

How the results depend on the processing

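The 0 of 10 genes at least 2-fold apart stayed 0 with a pseudocount of 1 RPM, with both other scalings, without a floor, with a floor of 10 RPM and at a threshold of 1.5. At a threshold of 1.2, added after the data were seen, 1 of the 10 and 4831 of all genes were apart. An exact binomial test on the reads, adjusted at 0.05, called 6 of the 10 (Loxl3, P4ha2, Plod1, Plod2, Plod3 and Serpinh1) and 5975 of all genes; it compares these libraries and not the conditions. The count over all genes was 872, and became 1899 without a floor, 121 with a floor of 10 RPM and 2011 at a threshold of 1.5. Of the pathway list, 1 gene was 2-fold apart without a floor, Tll2 with 4 reads in the anti-miR library and 0 in the control, and 2 at a threshold of 1.5. Other scalings moved single log2 ratios by at most 0.02, which changed the sign of Loxl1 and Loxl2. Median-ratio scaling took Serpinh1 from 0.03 to 0.002, so that its counting interval above 1 and its binomial call depend on the column totals. Without a correction for length every level and family share changed in value. Leaving Ankrd37 out of the hypoxia list and Lyz2 out of the macrophage markers was also added after the data were seen; the ratio of the macrophage sums was 1.11 with Lyz2 and 0.921 without. No paired analysis was possible because each group holds 1 library. With 1 library per group the spread between cultures is unknown, and that limits every comparison.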

Other observations

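Genes that supply the cofactors of these enzymes differed little between the libraries. Prolyl and lysyl hydroxylases need iron and ascorbate, and lysyl oxidases need copper. Of 10 listed genes in the table, 9 lay above the floor, with 3 higher and 6 lower and a median log2 ratio of −0.05. At the 1.5-fold mark 0 of 9 were apart, against 19.4% of all genes and 0.745% of those as abundant as the 10 enzymes and chaperone. Most of these 9 genes were scarcer than that level range. The widest were the iron exporter gene Slc40a1, with 109 RPM in the anti-miR library and 81.0 in the control, and the ferritin light chain gene Ftl, with 92.6 and 122. Their log2 ratios of 0.43 and −0.39 lay inside the spans of genes of like level, −0.42 to 0.46 and −0.49 to 0.40. Fth1, the ferritin heavy chain, had 880 RPM in the anti-miR library and 1056 in the control, and the transferrin receptor gene Tfrc had 154 and 180. The copper transporter genes Atp7a and Slc31a1 had log2 ratios of 0.07 and −0.01, and the ascorbate transporter gene Slc23a2 had 0.30. Slc40a1, Ftl, Atp7a, Slc31a1 and Slc23a2 were chosen after their values were seen.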
